A study of Mus musculus with 12 samples.

Results

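The genes described here are 10 smooth muscle and myofibroblast contractile genes, taken by name from a table of 24054 genes measured in primary mouse embryonic fibroblasts. They are Acta2, Tagln, Cnn1, Myh11, Myocd, Des, Actg2, Lmod1, Mylk and Tpm2. All 10 were present in the table and all passed the filter on low counts, which left 14876 genes. The set is a list of names and uses no threshold, but it was drawn up with earlier results of these data known.

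The fibroblasts, connective tissue cells grown from embryos, were wild type (WT), Blm -/- (Blm KO), Recql -/- (Recql KO) or Blm -/- Recql -/- (double KO). There were 12 libraries, 3 of each genotype. Blm and Recql encode the DNA helicases BLM and RECQL1. Every culture was kept at 37 °C under 3% oxygen with 5% CO2, in medium holding 10% fetal bovine serum, and no drug treatment is named. The labels give neither the knockout alleles nor the age of the embryos, and whether the libraries of 1 genotype stem from different embryos or cultures is not said. The p-values therefore measure the spread between these libraries, which may be partly technical.

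The libraries held 47758552 to 59296354 expected counts, the estimated counts per gene given by RSEM. Levels are given as CPM, counts scaled to a common library size, after trimmed mean of M values (TMM) scaling. Blm was 5.01-fold lower in Blm KO and 3.77-fold lower in double KO than in WT (edgeR adjusted p = 0.00211 and 0.0105). Recql was at 27.7 ± 1.86 CPM in WT and at 25.2 ± 4.16 and 26.3 ± 8.56 where the label says Recql KO or double KO (SD, n = 3), so the transcript does not check those 2 labels and they are used as names only. The summed level of 4 Y-linked genes (Ddx3y, Eif2s3y, Kdm5d, Uty) was 229 to 257 CPM in all 3 WT libraries. It reached 247 CPM in Blm KO replicate 1, 283 in Recql KO replicate 1 and 249 in double KO replicate 2, and 0.676 to 28.7 CPM in the other 6 libraries, of which Recql KO replicate 2 had the highest sum together with 310 CPM of Xist. Sex-linked level and genotype are thus partly confounded, and results that turn on it are given both ways.

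Smooth muscle cells contract by sliding smooth muscle myosin along filaments rich in alpha and gamma smooth muscle actin. Transcription of these genes is driven largely by serum response factor (SRF), which binds DNA elements called CArG boxes and works with the cofactor myocardin, encoded by Myocd, or with the related factors MRTF-A and MRTF-B, which respond to free actin. Fibroblasts in serum culture commonly take on part of this program, with alpha smooth muscle actin as its usual marker, and transforming growth factor beta (TGF-beta) strengthens it.

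CArG boxes were looked for in the promoters held in RefSeq's GRCm38.p6 table, as windows of 300 bases from 250 bases before to 50 after the annotated start. An entry was found for 6 members, namely Acta2, Cnn1, Des, Lmod1, Mylk and Tpm2. The search asked for CC, 6 bases of A or T, then GG, on both strands, which the palindromic form makes 1 search, and a second form allowed 1 of the 6 middle bases to be G or C. The strict form was present in 1.63% of the 32851 promoters of the table and either form in 9.98%. Among the 6 members, Acta2 alone held a match, with 2 of the relaxed form, while Myl9, which followed Acta2 closely across the libraries (below), held 1 strict and 1 relaxed match. Of the 8 genes most like Acta2, 6 had an entry, and Nuak1, Dusp3, Pdia5, Nppb and Tnfrsf11a held no match. The 4 elements are shown in capitals with 10 bases on each side, 5′ to 3′ on the gene's strand, since they are the sequence feature by which SRF is known to read such genes.
Acta2, chr19:34255438-34255467, minus strand: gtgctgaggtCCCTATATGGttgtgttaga
Acta2, chr19:34255388-34255417, minus strand: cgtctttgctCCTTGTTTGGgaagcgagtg
Myl9, chr2:156775293-156775322, plus strand: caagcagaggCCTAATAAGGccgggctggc
Myl9, chr2:156775355-156775384, plus strand: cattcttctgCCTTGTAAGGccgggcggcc
The Acta2 elements began 84 and 34 bases upstream of the RefSeq start, and those of Myl9 161 and 99 bases upstream. GENCODE M21 starts Acta2 further upstream, so both Acta2 elements lie in the first exon of that annotation. A match describes letters only, and its absence in the other 5 windows says nothing of elements elsewhere.

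The members differed in level by 3 orders of magnitude. Per kilobase of merged exons (GENCODE M21), the WT mean was 1480 CPM for Acta2 (chromosome 19, 34241090 to 34255590), which encodes alpha smooth muscle actin, and 821 for Tagln (chromosome 9, 45929619 to 45936058), which encodes the actin-binding protein transgelin or SM22. Tpm2 (chromosome 4, 43514711 to 43523765), encoding a beta tropomyosin that lies along the actin filament, stood at 204 CPM per kb. Actg2 (chromosome 6, 83512905 to 83536265), the gamma smooth muscle actin gene, stood at 129. Cnn1 (chromosome 9, 22099216 to 22109630), the gene of the actin-binding protein calponin, stood at 81.3, and Lmod1 (chromosome 1, 135324807 to 135368065), encoding leiomodin, which starts new actin filaments, at 23.3. The remaining members were lower per kilobase, with Des (chromosome 1, 75360329 to 75368579), the intermediate filament gene desmin, at 15.7. Mylk (chromosome 16, 34745210 to 35002420), the myosin light chain kinase gene, stood at 12.4 and Myh11 (chromosome 16, 14194535 to 14291372), the smooth muscle myosin heavy chain gene, at 8.37. Myocd (chromosome 11, 65176561 to 65269989) was the lowest at 0.692. On the same scale the cytoplasmic actin gene Actb stood at 2260, so that the smooth muscle actin transcript was of the same order as the most common housekeeping actin. Merged exons are longer than most single transcripts, so these values are rough for genes with several isoforms.

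Some counts rest on shared reads. RSEM splits reads that match several genes, and the value was not whole in 100% of libraries for Acta2 and Myh11, in 75% for Mylk and in none for Cnn1, Lmod1 and Myocd. A value that is not whole shows that some reads were split, not how many. Acta2 and Actg2 have close relatives among the actins, and how far their separation is uncertain was not measured. Tagln shares 877 exon bases with the antisense gene Gm48529 and 94 with Pcsk7, Mylk shares 333 with E130310I04Rik and 224 with Gm21691, and Des shares 220 with Gm15179, all on the opposite strand. The strand setting of the counting was not given, so reads from these partners cannot be told apart.

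**Figure D1:**
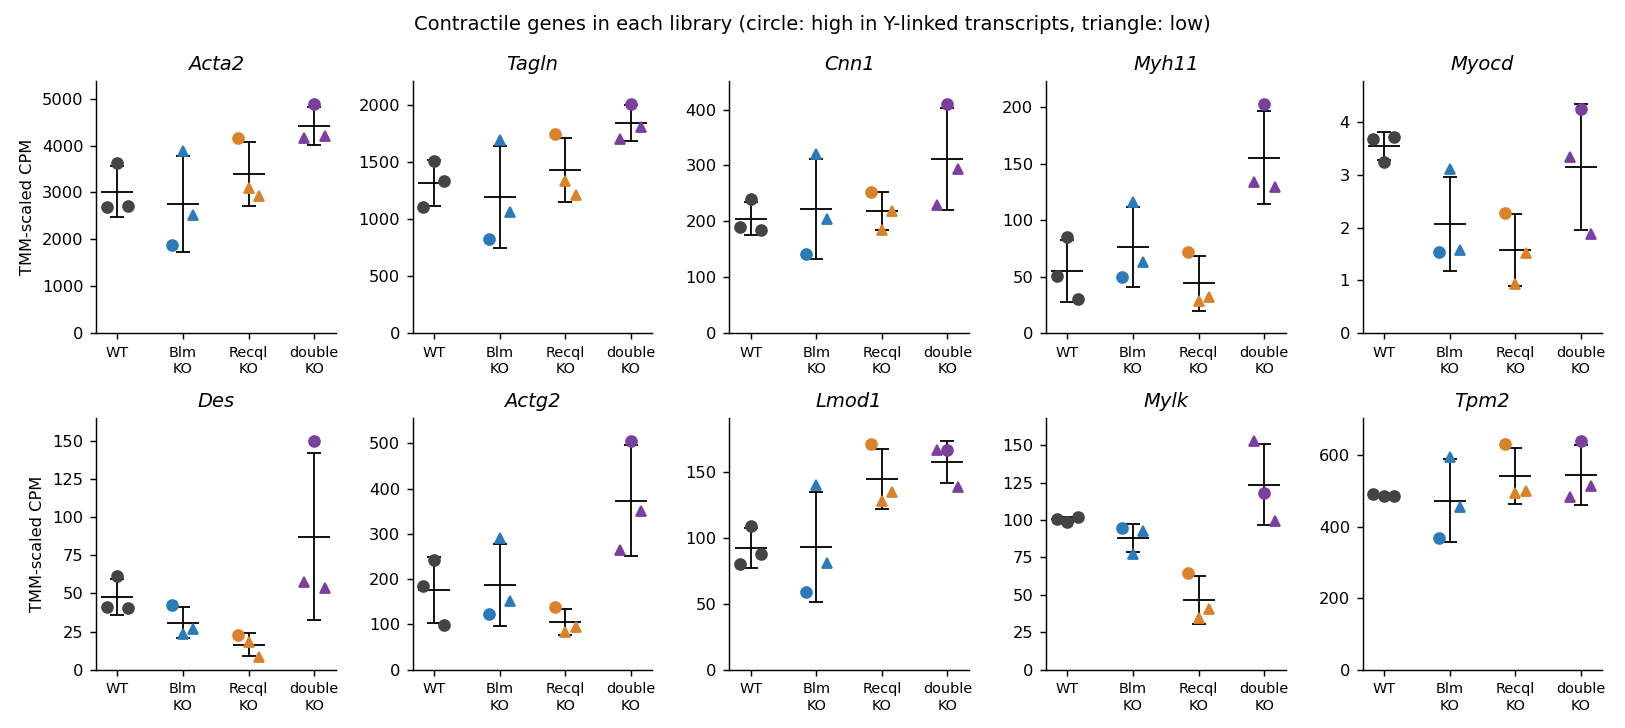
TMM-scaled CPM (linear axes from 0) of the 10 contractile genes in each library by genotype, with the group mean and SD (n = 3) as bars and circles for libraries high in Y-linked transcripts. Recql KO libraries lie below all WT libraries for Myocd, Des and Mylk, and double KO libraries lie above all WT libraries for Acta2, Tagln, Myh11, Actg2 and Lmod1.

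Blm KO was set against WT to ask which transcripts go with loss of Blm alone. The contractile genes did not pass the test: 0 of 10 were called at an adjusted p under 0.05 by edgeR, 0 at an unadjusted p under 0.05 and 0 by DESeq2. Over all tested genes those shares were 0.753%, 18.9% and 6.49%. In the 3 WT libraries, numbered in order, Acta2 stood at 2690, 3640 and 2710 CPM, and in the 3 Blm KO libraries at 1870, 3880 and 2510. The groups overlapped, with the lowest and the highest of these 6 values both in Blm KO (a log2 fold change of -0.13 with a model SE of 0.24, edgeR adjusted p = 0.804). For Tagln that change was -0.14 ± 0.24 (SE, as for all changes below) and for Cnn1 0.12 ± 0.28.

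Myocd and Mylk were the members whose libraries did not overlap, with Blm KO below WT, against 12.1% of all tested genes. Myocd was at 3.68, 3.25 and 3.73 CPM in WT and at 1.54, 3.11 and 1.57 in Blm KO, with replicate 2 close to WT (-0.78 ± 0.39, edgeR adjusted p = 0.306). Mylk was at 101, 98.4 and 102 CPM in WT and at 94.5, 77.2 and 92.7 in Blm KO (-0.19 ± 0.22, edgeR adjusted p = 0.661). The median log2 fold change of the members was -0.09, beside 0 over all tested genes.

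The spread in Blm KO came as a shared difference between libraries. Replicate 2 was the highest of the 3 for 8 members and replicate 1 the lowest for the same number, the exceptions being Des and Mylk, for which the order of those libraries was turned round. Acta2, Tagln, Cnn1 and Lmod1 had coefficients of variation of 37.2% to 44.9% in Blm KO and of 14.5% to 17.9% in WT. Tpm2 and Mylk were tight in WT, with 0.591% and 1.76%, while Myh11 varied by 50% there, from 30.1 to 84.8 CPM. The Blm KO replicate 1 library was high in Y-linked transcripts and the other 2 were not, and the part of this in the spread was not tested.

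WT was next compared with the libraries under the Recql KO label, for the transcripts that differ with that label by itself. Myocd, Des and Mylk fell, and no member rose. The 3 lower calls of 10 compare with 15.6% of all tested genes called lower and 29.9% called in either direction. The median of the members was -0.11, beside -0.01 over all genes, so the members split. Libraries lay wholly below WT for Myocd, Des and Mylk, against 25.4% of all tested genes, and wholly above for Lmod1 and Tpm2, against 23.9%. In bulk RNA, fewer cells of a type and less RNA per cell cannot be told apart, and this holds for every comparison here.

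Mylk, whose kinase phosphorylates the myosin regulatory light chain and so starts contraction in smooth muscle, was at 64.9, 34.6 and 40.3 CPM in the libraries labelled Recql KO, all below the 98.4 to 102 of WT. It fell 2.16-fold (-1.11 ± 0.22 on the log2 scale, edgeR adjusted p = 0.00495), and kept its call in all 12 fits that left out 1 library (adjusted p = 0.00168 to 0.0211).

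Des was at 22.6, 18.4 and 8.46 CPM, below the 40.8, 61.1 and 40.5 of WT. It fell 2.88-fold (-1.52 ± 0.46, edgeR adjusted p = 0.0292). The call did not hold without WT replicate 2 or 3 (adjusted p = 0.0828 and 0.0513), without Recql KO replicate 2 or 3 (0.0722 and 0.0829), with no filter on low counts (0.0568) and within the libraries rich in Y-linked RNA (0.0836).

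Myocd, the coactivator of SRF in smooth and cardiac muscle, was at 2.28, 0.929 and 1.52 CPM, or 54 to 123 counts, against 3.25 to 3.73 CPM in WT. It fell 2.26-fold (-1.17 ± 0.39, edgeR adjusted p = 0.0446), just inside the threshold. The call was lost without any 1 of the WT libraries (adjusted p = 0.0698 to 0.0996), without Recql KO replicate 2 or 3 (0.148 and 0.105), and also without Blm KO replicate 3 (0.0533) or double KO replicate 1 (0.0565). It was lost too with the replicate number as a block (0.0557), with the mean Y-linked log2 level in the model (0.0985) and within the libraries rich in Y-linked RNA (0.241).

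The abundant actin-filament genes showed no such fall in the libraries labelled Recql KO. Acta2 was at 4170, 3090 and 2930 CPM, overlapping WT (0.17 ± 0.24, edgeR adjusted p = 0.618), and Tagln at 1750, 1330 and 1210 (0.12 ± 0.24). Cnn1 had a log2 fold change of 0.09 ± 0.28 and Tpm2 of 0.15 ± 0.17. Lmod1 was at 171, 128 and 135 CPM, above the 80 to 109 of WT, but did not pass (0.65 ± 0.26, edgeR adjusted p = 0.0848). It did pass without Blm KO replicate 1 or 2 (adjusted p = 0.0345 and 0.0133), in a fit on both groups alone (0.016), by DESeq2 (0.0423) and within the libraries rich in Y-linked RNA (0.0453).

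Actg2 and Myh11 did not pass either, and lay with wide errors below 0. Actg2 was at 138, 83.3 and 94.6 CPM against 186, 243 and 98.5 in WT (-0.74 ± 0.40, edgeR adjusted p = 0.182). Myh11 was at 72.1, 28.6 and 31.8 against 50.9, 84.8 and 30.1 (-0.32 ± 0.46, edgeR adjusted p = 0.627). In these libraries replicate 1, the one high in Y-linked transcripts, was the highest of the 3 for all 10 members.

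**Figure D2:**
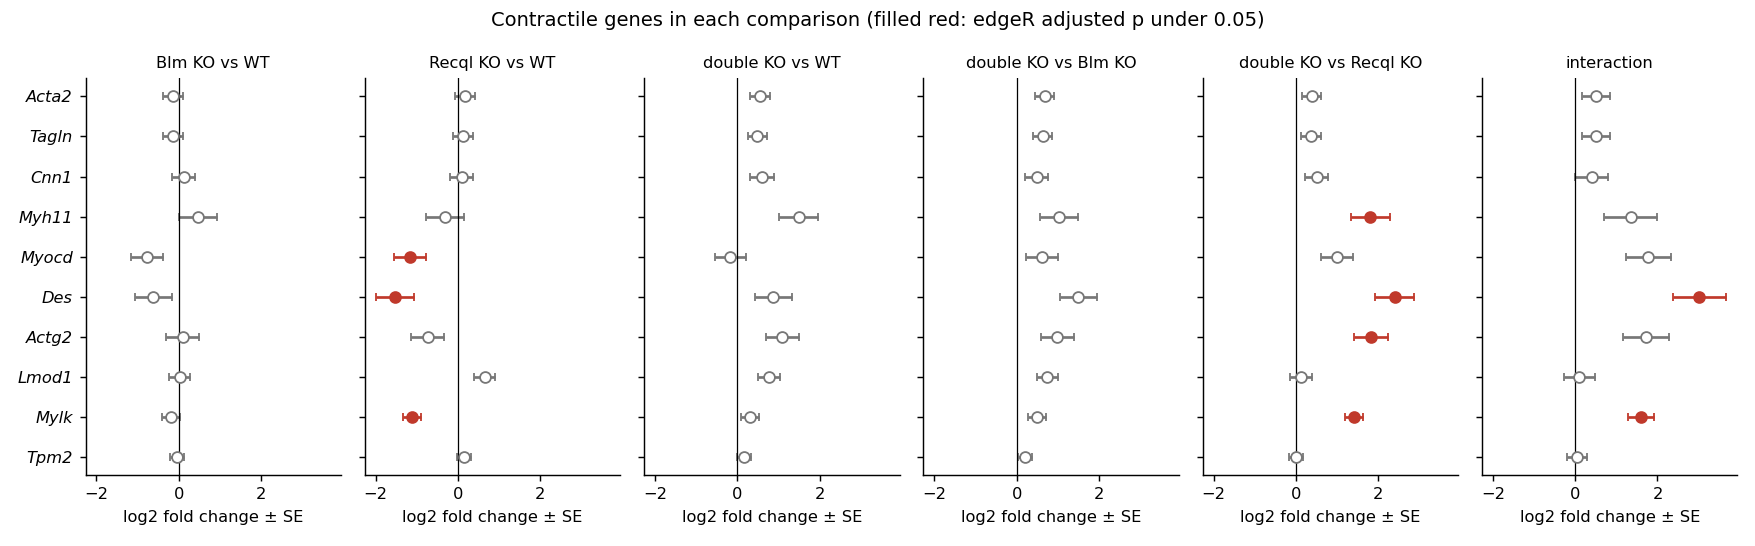
Log2 fold change (horizontal axis, model SE as bars) of each contractile gene in 5 comparisons and in the interaction, from 1 edgeR fit over 12 libraries. Filled red points mark an adjusted p under 0.05: 3 genes for Recql KO against WT, 4 for double KO against Recql KO, 2 for the interaction and none in the other panels.

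Double KO was set against WT to ask what differs under the label of the combined loss. Levels were mostly above WT, with 9 of 10 members at a positive log2 fold change and a median of 0.58 beside 0.01 over all genes, but 0 of 10 were called by edgeR, where 0.121% of all tested genes were called. At an unadjusted p under 0.05 there were 4 (Acta2, Myh11, Actg2 and Lmod1), against 10.8% of all tested genes, and DESeq2 called 0, against 2.19%. Libraries did not overlap, with double KO above WT, for Acta2, Tagln, Myh11, Actg2 and Lmod1, against 7.31% of all tested genes.

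Acta2 was at 4160, 4890 and 4210 CPM in double KO, all above the highest WT library at 3640 (0.55 ± 0.24, edgeR adjusted p = 0.454). Tagln was at 1700, 2010 and 1810 CPM, above the 1110 to 1510 of WT (0.49 ± 0.24, edgeR adjusted p = 0.505). Myh11, the member most restricted to mature smooth muscle, was at 134, 203 and 129 CPM, above the WT maximum of 84.8 (1.49 ± 0.47, or 2.81-fold, edgeR adjusted p = 0.291). Its fold was the largest of the 10 members, and so was its SE.

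Actg2 was at 265, 506 and 350 CPM, above the 243 of its highest WT library (1.09 ± 0.40, edgeR adjusted p = 0.371). Lmod1 was at 167, 167 and 139 CPM (0.77 ± 0.26, edgeR adjusted p = 0.335). Des, at 57.6, 150 and 53.8 CPM, overlapped WT and had 1 library far above the rest (0.87 ± 0.45, edgeR adjusted p = 0.523). That library, replicate 2, was the double KO library high in Y-linked transcripts. Without it the log2 fold change of Des was 0.23, and with the mean Y-linked log2 level in the model Des was called (1.37, edgeR adjusted p = 0.0459).

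Myocd, Mylk, Cnn1 and Tpm2 overlapped WT in double KO. Myocd was at 3.34, 4.25 and 1.88 CPM, on both sides of the WT values, and had the 1 negative log2 fold change (-0.17 ± 0.38). Mylk was at 153, 118 and 99.6 CPM (0.30 ± 0.22) and Cnn1 at 230, 410 and 294 (0.60 ± 0.28). Tpm2 was at 483, 640 and 512 (0.16 ± 0.17). Replicate 2 was the highest double KO library for 9 members, the exception being Mylk.

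Double KO was next set against each single KO. These comparisons share the double KO libraries with each other and with the comparison to WT, so their directions are not independent of it. Against Blm KO, the log2 fold change was positive for 10 of 10 members with a median of 0.65 beside 0 over all genes. By edgeR 0 were called (1.96% of all tested genes), 7 had an unadjusted p under 0.05 (23.3% of all), and DESeq2 called 3 (9.37% of all), namely Acta2, Des and Lmod1. Libraries lay wholly above Blm KO for Acta2, Tagln, Myh11, Des and Mylk, against 12% of all tested genes. Des had the largest value (1.5 ± 0.45, edgeR adjusted p = 0.101), with double KO at 53.8 to 150 CPM and Blm KO at 23.7 to 42.3.

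By edgeR, the calls of 3 genes in this comparison changed when 1 Blm KO library was left out. Without Blm KO replicate 2, whose Acta2, Tagln and Lmod1 levels were the highest of that group, edgeR called Acta2 (1.01, adjusted p = 0.0313), Tagln (0.97, adjusted p = 0.0297) and Lmod1 (1.17, adjusted p = 0.0173). Without Blm KO replicate 1 the values of Acta2, Tagln and Lmod1 were 0.47, 0.42 and 0.51, and none was called. With the mean Y-linked log2 level in the model, Des was called (1.30, adjusted p = 0.024).

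Against the libraries labelled Recql KO, double KO was higher for Myh11, Des, Actg2 and Mylk. These 4 of 10 compare with 13.2% of all tested genes called higher and 24.7% called either way, and none of the 10 was called lower. Des was 5.27-fold higher (2.40 ± 0.47, edgeR adjusted p = 0.00521), with the lowest double KO library at 53.8 CPM and the highest Recql KO library at 22.6. Mylk was 2.65-fold higher (1.41 ± 0.22, edgeR adjusted p = 0.00191), Actg2 3.55-fold (1.83 ± 0.41, edgeR adjusted p = 0.00967) and Myh11 3.51-fold (1.81 ± 0.47, edgeR adjusted p = 0.0195). Libraries of the groups did not overlap for any of these 4, and for none of the other members, against 22.5% of all tested genes with double KO wholly above.

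Des, Mylk and Actg2 kept the call whichever library was left out. Myh11 lost it without Recql KO replicate 2 or 3 (adjusted p = 0.0762 and 0.0677) and without double KO replicate 2 (0.0531). Within the libraries rich in Y-linked RNA, a fit with a lone library for each knockout genotype, assumed to vary as WT does, Des alone stayed called. In that fit Mylk stood at 0.85 (edgeR adjusted p = 0.0536), Actg2 at 1.87 (0.215) and Myh11 at 1.48 (0.357). Myocd, at 1.00 ± 0.39, did not pass (edgeR adjusted p = 0.0854) except by DESeq2 (0.0455) and without double KO replicate 3 (0.0498), and Acta2, Tagln, Cnn1, Lmod1 and Tpm2 overlapped between the groups, with log2 fold changes of 0.01 to 0.51.

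The interaction asks whether double KO differs from Blm KO by the same log2 amount as Recql KO from WT. It was called for 2 of 10 members, both upward, where 5.86% of all tested genes were called upward and 10.4% either way. For Des it was 3.02 ± 0.64 (edgeR adjusted p = 0.0186), since Des was 2.82-fold higher in double KO than in Blm KO and 2.88-fold lower in Recql KO than in WT. For Mylk it was 1.60 ± 0.31 (edgeR adjusted p = 0.0135), with 1.40-fold higher set against 2.16-fold lower. The call for Des was lost without Blm KO replicate 3 (adjusted p = 0.0552), and neither was called within the libraries rich in Y-linked RNA (0.0977 and 0.148). Myocd and Actg2 had values of 1.78 and 1.73 and did not pass by edgeR (adjusted p = 0.0637 and 0.0743), but were called by DESeq2 (0.0138 and 0.0114). Without Blm KO replicate 2 edgeR called both (0.0388 and 0.0398), and it called Myocd without double KO replicate 3 (0.0385) and Actg2 without WT replicate 3 (0.0485).

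Alpha and gamma smooth muscle actin were next read as a share of all actin counts, which does not depend on scaling between libraries. Acta2 and Actg2 together took 28.4%, 30.8% and 23.6% of the counts of the 6 actin genes in WT and 23.5%, 32.4% and 26.5% in Blm KO. The share was 38%, 34.8% and 33.3% under the Recql KO label, and the double KO libraries held 35.3%, 38.4% and 35.8%. Every library of these 2 genotypes lay above every WT and Blm KO library, with 33.3% and 32.4% as the closest values. The make-up differed, since Actg2 took 0.911% to 1.21% in Recql KO and 2.11% to 3.6% in double KO, with no overlap.

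The rest of the actin pool also differed in the libraries labelled Recql KO. Actg1, a cytoplasmic actin gene, fell 1.42-fold against WT (-0.51 ± 0.14, edgeR adjusted p = 0.0193), while Actb did not pass (-0.32 ± 0.15, edgeR adjusted p = 0.117). Of the 4 other actin genes 2 fell, where 15.6% of all tested genes were called lower. The second was the cardiac actin gene Actc1, which held 1 to 4.92 counts in these libraries and 21 to 47 in WT. The skeletal actin gene Acta1 did not pass (1.29 ± 0.60, edgeR adjusted p = 0.126), at 92.4, 101 and 90.7 CPM against 19.6, 59.2 and 37.7.

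**Figure D3:**
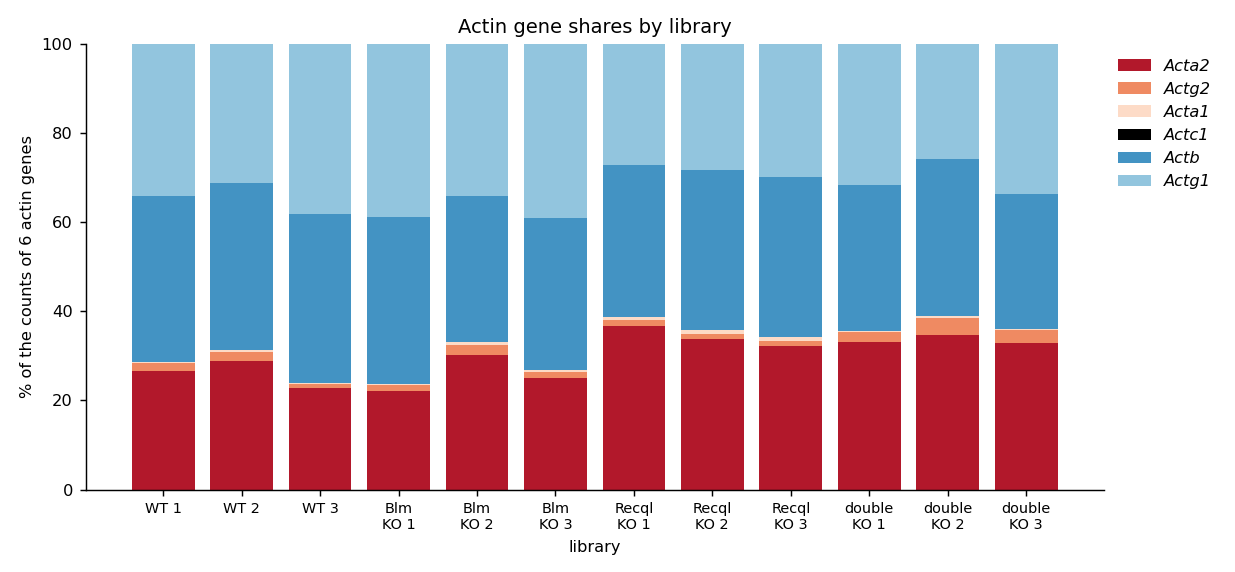
Share of the summed expected counts of 6 actin genes taken by each gene, as stacked bars per library (vertical axis in percent). Acta2 takes 22.1% to 30.2% in WT and Blm KO libraries and 32.2% to 36.8% in Recql KO and double KO libraries, while Actg2 is widest in double KO replicate 2 at 3.6%.

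Other proteins of the contractile apparatus were counted from a list of 32 genes. In Blm KO and in double KO against WT, 0 of 32 were called by edgeR and 0 by DESeq2. At an unadjusted p under 0.05 there were 1 and 3, where 18.9% and 10.8% of all tested genes passed. Medians were -0.06 and 0.20. Against Blm KO, double KO had 0 calls by edgeR, 11 genes at an unadjusted p under 0.05 (23.3% of all tested genes) and 7 calls by DESeq2 (9.37% of all), among them the tropomyosin genes Tpm1 and Tpm4. In the libraries labelled Recql KO, 4 rose and 7 fell, near the share called among all genes, with a median of 0.06. Csrp2, encoding a LIM protein of smooth muscle, fell 2.80-fold, from 52.8 to 65.1 CPM in WT to 19.8 to 24 (-1.49 ± 0.20, edgeR adjusted p = 0.000855). Smtn, the smoothelin gene of contractile smooth muscle, fell 1.95-fold (-0.96 ± 0.11, edgeR adjusted p = 0.000358), from 118 to 155 CPM to 63.1 to 74.7. Myh10, a non-muscle myosin heavy chain gene, fell 1.84-fold (edgeR adjusted p = 0.00796). Ppp1r14a, encoding the inhibitor CPI-17 of myosin phosphatase, rose 2.70-fold from a low level (1.43 ± 0.26, edgeR adjusted p = 0.00299), from 2.01 to 2.89 CPM to 6.04 to 8.32.

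Double KO was higher than Recql KO for 10 of the 32 and lower for 2, where 13.2% of all tested genes were called higher and 24.7% either way. Csrp2 (1.41 ± 0.20, edgeR adjusted p = 0.00117), Smtn (0.84 ± 0.11, edgeR adjusted p = 0.000653) and the vinculin gene Vcl (0.81 ± 0.16, edgeR adjusted p = 0.00542) were among the higher ones. Ppp1r14a (-0.94 ± 0.26, edgeR adjusted p = 0.022) and the actin-severing gene Dstn (-0.63 ± 0.20, edgeR adjusted p = 0.0381) were the lower ones. In the interaction 4 of 32 were called, all upward (5.86% of all tested genes), namely Smtn, Cnn3, Csrp1 and Csrp2.

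Myocd was set beside the other regulators in a list of 15 genes for SRF and its cofactors. In Blm KO and double KO against WT 0 of 15 were called by edgeR or DESeq2. In each, 1 had an unadjusted p under 0.05, where 18.9% and 10.8% of all tested genes did. Srf was at 66.4 to 89.3 CPM in WT and 63.6 to 74.3 in the libraries labelled Recql KO (-0.24 ± 0.12, edgeR adjusted p = 0.14). The MRTF-A gene, listed as Mkl1, had a log2 fold change of 0.08 ± 0.09 and the MRTF-B gene, listed as Mkl2, of 0.18 ± 0.09, and neither passed. Of the 15, 1 rose and 1 fell, where 29.9% of all tested genes were called either way. Klf4, encoding a zinc-finger factor known to repress smooth muscle genes, rose 2.13-fold, from 50.1, 78.2 and 73.3 CPM in WT to 133, 153 and 143 (1.09 ± 0.28, edgeR adjusted p = 0.0146). Foxo4 fell 1.36-fold (-0.45 ± 0.12, edgeR adjusted p = 0.0166). Against Recql KO, double KO was lower for Klf4 (-1.06 ± 0.28) and higher for Foxo4 (0.45 ± 0.12), but this comparison shares the Recql KO libraries. It called 5 of the 15, where 24.7% of all tested genes were called either way. The others were Gata6 (0.93 ± 0.30) and Hey2 (1.94 ± 0.55), both higher, and Mkl2, which was lower (-0.31 ± 0.09, edgeR adjusted p = 0.0342).

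In the list of 16 TGF-beta and myofibroblast genes, 2 fell and 1 rose with the Recql KO label. Over all tested genes, 15.6% were called lower there and 29.9% either way. In either other comparison with WT edgeR called 0 of the 16. At an unadjusted p under 0.05 there was 1 in Blm KO and 3 in double KO (18.9% and 10.8% of all tested genes). DESeq2 called 1 (Fn1, the fibronectin gene) in Blm KO and 0 in double KO, where 6.49% and 2.19% of all were called. Of the TGF-beta ligand genes, Tgfb3 fell 2.07-fold, from 412 to 581 CPM to 212 to 292 (-1.05 ± 0.17, edgeR adjusted p = 0.00189). Tgfb2 fell 1.77-fold (-0.83 ± 0.14, edgeR adjusted p = 0.00233), and Tgfb1 did not pass (0.48 ± 0.22, edgeR adjusted p = 0.118). Smad7, the inhibitory SMAD gene, rose 1.63-fold (0.71 ± 0.21, edgeR adjusted p = 0.0282). In double KO against Recql KO 6 of 16 were higher (13.2% of all tested genes), namely Fap, Tgfb3, Postn, Tgfb2, Tgfbr2 and Cthrc1, and 1 was lower (Smad7).

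**Figure D4:**
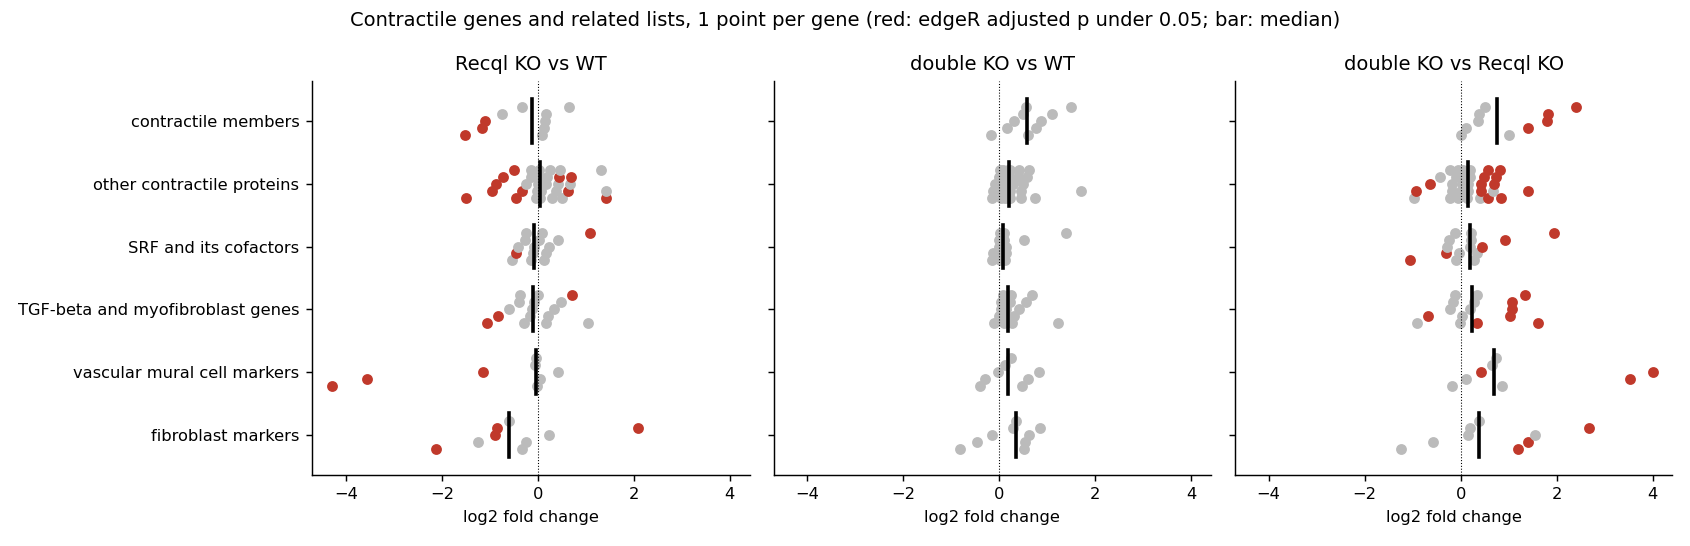
Log2 fold change (horizontal axis) of single genes in the contractile members and 5 related lists for 3 comparisons, with red points for an edgeR adjusted p under 0.05 and a black bar for the median. No gene is red in double KO against WT, where the median of the members is 0.58 and that of the 32 other contractile proteins 0.20.

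Desmin is shared by several cell types, so markers of other muscle and of vascular mural cells were read beside it. The skeletal muscle factors Myod1, Myog and Myf5 were at a mean of at most 0.13 CPM in every group, and 12 skeletal muscle markers together summed to 2.28 to 5.58 CPM in any library, with Myf6 and Ckm at 0 in all libraries of 3 genotypes each and Myog at 0 in Recql KO. Tnnt3, a troponin gene of skeletal muscle, fell with the Recql KO label (-2.70 ± 0.51, edgeR adjusted p = 0.00378), from 0.415 to 1.38 CPM to 0.103 to 0.167. The 8 cardiac markers summed to 13.7 to 27.2 CPM, led by Tbx5 in WT and Blm KO, with Nkx2-5 at 0 in Recql KO and Myh6 at 0 in Blm KO. Tnnt2, the cardiac troponin gene, rose from 2.22 to 4.51 CPM in WT to 6.18 to 13.2 under the Recql KO label (1.60 ± 0.42, edgeR adjusted p = 0.018). It was the 1 gene called of 5 tested cardiac markers there, where 29.9% of all tested genes were called either way. The median of these markers was -0.66, with Myl7 at -1.59, Nppa at -1.22, Tbx5 at -0.66 and Tnni3 at 0.08. Against Recql KO, double KO was higher for 2 of the 5 tested cardiac markers, where 13.2% of all tested genes were called higher. They were the atrial genes Myl7 (3.19 ± 0.83, edgeR adjusted p = 0.0195) and Nppa (2.95 ± 0.82, edgeR adjusted p = 0.0248). Tnnt2 (-0.49 ± 0.41), Tbx5 (-0.1 ± 0.34) and Tnni3 (0.11 ± 0.39) did not pass, and the median of the 5 was 0.11. Myl7 was at 1.7 to 3.23 CPM in double KO. Nppa held 11, 58 and 6 counts there, or 0.11 to 1.02 CPM. Among 8 mural cell markers 3 fell with the Recql KO label, where 15.6% of all tested genes fell. Abcc9, a potassium channel subunit gene of pericytes, was at 0.164 to 0.259 CPM (8 to 14.25 counts) against 3.01 to 5 in WT (-4.29 ± 0.51, edgeR adjusted p = 0.000481). Its partner Kcnj8 was at 0.0861 to 0.143 CPM (5 to 7 counts) against 0.934 to 1.95 (-3.56 ± 0.61, edgeR adjusted p = 0.00239). Rgs5 fell 2.22-fold (edgeR adjusted p = 0.0283).

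The other mural markers did not pass, and the summed level of all 8 was 764 to 834 CPM in Recql KO and 682 to 867 in WT, most of it from Pdgfrb, Cspg4 and Mcam. That sum was 881 to 1010 in Blm KO and 1060 to 1120 in double KO. The 9 fibroblast markers, all detected, summed to 23900 to 25400 CPM in WT and 28800 to 36600 in Blm KO. They summed to 12200 to 15700 in Recql KO and 28900 to 33100 in double KO. These markers were thus present in every library, with Lum the lowest at 1.31 CPM in Recql KO replicate 2. Their sum came mostly from Col1a1, Col1a2, Col3a1 and Vim, and does not by itself settle the cell type. With the Recql KO label 3 of these 9 markers fell (the collagen genes Col1a1, Col1a2 and Col3a1) and Dcn rose. Over all tested genes 29.9% were called either way there.

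Small sums of other cell types moved with the same label, and the endothelial and epithelial sums lay below WT in Blm KO too. The 5 endothelial markers summed to 12.2 to 20.2 CPM in WT and 3.27 to 11.4 in Blm KO, and to 3.08 to 4.48 in Recql KO against 10.4 to 15.1 in double KO. Kdr, Tek and Emcn of the 5 endothelial markers fell with the Recql KO label, where 15.6% of all tested genes fell. So did the keratins Krt8 and Krt18 of the 5 epithelial markers. Cd68 (-0.76 ± 0.21) and Lyz2 (-2.98 ± 0.93) of the 5 macrophage and blood markers fell as well. For the 5 epithelial markers the ranges were 23.3 to 46.2, 15.1 to 20.9, 9.49 to 14.6 and 16 to 37.1 CPM in the same order, and for the 5 macrophage and blood markers 6.03 to 15.3, 3.74 to 10.6, 4.02 to 6.04 and 5.99 to 14.5. No epithelial, endothelial or blood marker was at 0 throughout a group. In Blm KO against WT edgeR called 0 of these markers. DESeq2 called 3 of the 5 endothelial ones there (Cdh5, Kdr and Emcn), 1 epithelial (Krt18) and 0 blood ones, where 6.49% of all were called. The endothelial median was -1.82 in Blm KO and -1.46 with the Recql KO label. In double KO against Blm KO edgeR called Emcn of the endothelial markers (2.03 ± 0.37, edgeR adjusted p = 0.0286), where 1.96% of all tested genes were called. In the interaction, which was called for Des and Mylk, markers were also called and all upward. Over all tested genes 5.86% were called upward. The called markers were Abcc9 and Kcnj8 of 8 mural markers, Col1a1 and Col3a1 of 9 fibroblast markers, and Krt8 and Krt18 of 5 epithelial markers. Cdh5, Kdr and Emcn of 5 endothelial markers and Myl7 of 5 tested cardiac markers were called too. Values of the called markers ran from 0.82 for Col1a1 to 6.84 for Krt8. Of the 5 macrophage and blood markers and the 4 tested skeletal muscle markers 0 were called. The part of these cells in the changes of Myocd, Des, Mylk, Actg2 and Myh11 was not tested.

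Members were compared with Acta2 by the root mean square difference of log2(CPM + 1) over the 12 libraries after centring each gene. This is a description over libraries that share genotype and depth. Tagln was the closest at 0.07, nearer than any of the 12574 other genes above a mean of 1 CPM. Cnn1 (0.186), Lmod1 (0.195) and Tpm2 (0.239) followed, with 6, 7 and 48 of the other genes as close. Myocd (0.451), Actg2 (0.592), Mylk (0.641), Myh11 (0.655) and Des (0.901) were far from it, with 6826 to 11977 other genes as close or closer. The measure counts the size of differences as well as their pattern. In every genotype Actg2 and Myh11 were highest in the same replicate as Acta2, which did not hold for Myocd, Mylk and Des. The highest library was 6.07 times the lowest for Actg2 and 7.08 times for Myh11, against 2.61 for Acta2. A gene with a flat profile would score 0.384.

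The 8 closest genes outside the members were Nuak1, Adamts6, Myl9, Dusp3, Pdia5, Nexn, Nppb and Tnfrsf11a, at 0.164 to 0.198. Myl9 encodes the smooth muscle myosin regulatory light chain and Nexn an actin-binding protein of muscle, and both stood in the list of other contractile proteins. Myl9 was at 453, 496 and 453 CPM in WT, and the Blm KO libraries held 372, 646 and 465. Recql KO libraries held 564, 403 and 431 and double KO libraries 664, 769 and 643. Its likeness to Acta2 in these libraries is what it was chosen for, and these levels are a description.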

How the data were processed

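The authors deposited 1 table of RSEM expected counts per gene for 12 libraries of polyadenylated RNA. Per the submitters' processing notes, Bowtie2 2.1.0 and RSEM 1.2.15 were used with mm10. The sources used here give no annotation version, strand setting or read filter. Between 17.4% and 20.2% of values were not whole, and counts were rounded.

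All genes were fitted in R 4.3.3 with edgeR 4.0.16 (filterByExpr, TMM factors 0.96 to 1.03, 1 mean per genotype, 8 residual degrees of freedom, robust quasi-likelihood F test), with Benjamini-Hochberg adjustment over 14876 genes and a call under 0.05. SE is the absolute log2 fold change divided by the square root of F. The steps were tested on simulated data with 67, 67 and 66 genes changed 1.5-, 2- and 4-fold between Recql KO and WT. Of these, 41.8%, 77.6% and 90.9% were called in the right direction, and 4 of the 144 calls were false. Small changes were thus often missed there, and these shares need not hold for the real comparisons. Alternatives were DESeq2 1.42.0, RLE scaling, other filters on low counts, a fit on the compared groups only, the replicate number as a block, the mean log2 CPM of the Y-linked genes as a covariate, only the libraries above 100 CPM of Y-linked transcripts, and leaving out each library. Total depth was 47758552 to 59296354 expected counts, so 3 counts equal 0.0508 to 0.0614 CPM. Gene positions and exon lengths came from GENCODE M21 (GRCm38, the assembly of mm10), promoters from RefSeq GRCm38.p6.

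The members and lists were chosen with earlier results of these data known. The naming rule took all 10 members, up to 4 called genes per pathway list with the largest change in each comparison with WT, and the 8 genes most like Acta2. List genes named beyond it, and the cell type markers named, were chosen after their values were seen. Any pair of libraries in a group differed beyond counting noise (chi-square over its degrees of freedom 26.3 to 172). Deviations of same-numbered WT and Blm KO libraries from their group means correlated at 0.13, 0.26 and 0.18 across genes. The labels name no pairing of the numbers, so this is a hint from the data only. For the other pairs of groups at least 1 of the 3 values was 0 or below after rounding. WT and double KO, for example, had -0.14, 0.34 and 0.26.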

Additional observations from a re-analysis of the deposited data

Results flagged for a closer look

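The interaction was called by edgeR for Des and Mylk, so that their change from Blm KO to double KO differed from their change from WT to Recql KO. Des had an interaction of 3.02 on the log2 scale (edgeR adjusted p = 0.0186) and Mylk of 1.6 (edgeR adjusted p = 0.0135). Over all tested genes the interaction was called upward for 5.86% and either way for 10.4%. Des was lower than every WT library in 3 of 3 Recql KO libraries, against 25.4% of all tested genes. It was higher than every Blm KO library in 3 of 3 double KO libraries, against 12%, and the same holds for Mylk. These are the libraries that gave the interaction, so this is a description. Leaving out 1 library at a time, the value ran from 2.38 to 3.32 for Des, whose call was lost without Blm KO replicate 3 (edgeR adjusted p = 0.0552), and from 1.41 to 1.91 for Mylk, called in 12 of 12 fits. Neither was called within the libraries high in Y-linked transcripts (edgeR adjusted p = 0.0977 and 0.148).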

How the results depend on the processing

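Of 1190 values of single members under the alternatives, 1110 kept direction and call, 25 lost a call, 21 gained one and 34 changed sign; none of the latter was called. The cause of these changes was not tested. RLE scaling and a filter of CPM above 1 in 3 libraries kept every count of genes within 1.5 times, and scaling moved the median of all genes by at most 0.01 on the log2 scale.

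The count of genes called in Blm KO against WT was 112, 947 by DESeq2, 43 with the Y-linked level as covariate and 2 with only libraries high in Y-linked transcripts. For Recql KO against WT it was 4444, and 1128 with those libraries only. For double KO against WT it was 18, 337 by DESeq2, 0 in a fit on the compared groups only, 43 with the covariate and 3 with the high libraries only. Against Blm KO it was 291, 1404 by DESeq2, 8 on the compared groups only and 0 with the high libraries only. Against Recql KO it was 3681 and 373 with the high libraries only. For the interaction it was 1554, 2616 by DESeq2, 820 with the covariate and 5 with the high libraries only. The fit on compared groups only was not run for the interaction.

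The count of members called was 1 with the covariate in double KO against WT and against Blm KO, where DESeq2 gave 3. It was 1 with the high libraries only against Recql KO, and for the interaction 4 by DESeq2 and 0 with those libraries.

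The replicate number as a block treats same-numbered libraries as sets, which the labels do not name. With it 120 genes were called between WT and Blm KO, and the calls of the members there were the same. Over all 12 libraries, WT and Blm KO included, 9 correlated best with their own number, a hint from the data and not from the design. The block gave 50 genes for double KO against WT and 762 against Blm KO, and lost Myocd in Recql KO (-1.18, edgeR adjusted p = 0.0557). It turned the uncalled Lmod1 in Blm KO against WT and Tpm2 in double KO against Recql KO to -0.01.

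Other uncalled values changed sign. In Blm KO against WT the covariate gave 0.08 for Des and -0.13 for Lmod1. There the high libraries only gave -0.52 for Cnn1, -0.15 for Myh11, -0.51 for Actg2 and -0.63 for Lmod1. They also gave 0.38 for Myh11 in Recql KO against WT, 0.25 for Myocd in double KO against WT and -0.04 for Lmod1 in double KO against Recql KO.

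Leaving out 1 library at a time, the count of genes ran from 31 (without WT replicate 2) to 572 (without double KO replicate 2) in Blm KO and from 2692 to 4964 in Recql KO, each against WT. It ran from 8 to 28 for double KO against WT, 9 to 585 against Blm KO, 2157 to 3875 against Recql KO and 549 to 1836 for the interaction. The count of members ran from 0 to 0, 1 to 4, 0 to 0, 0 to 3, 3 to 5 and 1 to 4 in the same order. Of uncalled values that changed sign in Blm KO against WT, Acta2 ran from -0.46 to 0.08, Tagln from -0.48 to 0.06 and Cnn1 from -0.25 to 0.35. Actg2 ran from -0.36 to 0.4, Lmod1 from -0.39 to 0.26 and Tpm2 from -0.24 to 0.1. In Recql KO against WT, Myh11 ran from -0.87 to 0.13, Tagln from -0.05 to 0.23 and Cnn1 from -0.02 to 0.22. Myocd ran from -0.44 to 0.09 in double KO against WT and Tpm2 from -0.12 to 0.13 against Recql KO. In the interaction Lmod1 ran from -0.14 to 0.51 and Tpm2 from -0.1 to 0.25.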

Other observations

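Ratios of 2 related genes inside a library do not depend on scaling between libraries, and 5 were taken. Acta2 to Actb was 0.601 to 0.768 in WT and 0.589 to 0.917 in Blm KO, and 0.896 to 1.08 in Recql KO and 0.992 to 1.09 in double KO. The ratio of Myh11 to Myh9, the non-muscle myosin heavy chain gene, was 0.0517, 0.0817 and 0.058 in double KO and 0.0116 to 0.0439 in the other 9 libraries, so that double KO lay above all of them. The ratio of Actg2 to Acta2 was 0.0269 to 0.033 in the libraries labelled Recql KO, below the 0.0363 to 0.103 of all other libraries. The ratio of Cnn1 to Cnn2, calponin genes of muscle and of other cells, was 0.407 to 0.511 in Recql KO and 0.271 to 0.363 in WT, with Blm KO at 0.276 to 0.431 and double KO spread from 0.337 to 0.618. With the Recql KO label it was Cnn2 that fell against WT (-0.46 ± 0.13, edgeR adjusted p = 0.0244), while Cnn1 did not pass (0.09 ± 0.28, edgeR adjusted p = 0.83). Desmin to vimentin (Des to Vim) was 0.00273 to 0.0064 in Recql KO, 0.00461 to 0.0112 in Blm KO, 0.00941 to 0.0156 in WT and 0.0137 to 0.0398 in double KO. These ratios are values without a test, and they were chosen after the levels were seen.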
